A study of Mus musculus with 6 samples.

Results

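Scavenger receptors of macrophages (MPs) were examined as a set of 10 genes taken by name: Marco, Msr1, Cd36, Cd163, Stab1, Scarb1, Scarb2, Cd68, Lrp1 and Cxcl16. All 10 were present among the 13008 genes of the deposited table of normalized values. Marco had been chosen because it differed between these very groups, so its values are a description, and nothing is read from a test of Marco. Tests are given for the other 9 genes. RNA-seq had been performed on GFP+/F4/80+/Ly6C-Low MPs sorted from injured hind limb muscles on day 5 after injection of cardiotoxin (CTX), a snake venom toxin that kills muscle fibers. The mice were C57BL/6J, aged 3 months and labelled male. The 3 Control samples carry the genotype wild type in the labels, whereas the study's methods describe the GFP-Control mice as Tg:LysMCre animals with the R26mTmG reporter, in which GFP marks cells where Cre has acted. The 3 Cripto KO samples are labelled Tg:LysMCre::Cripto-/-. The study describes the sorted cells of this group as coming from GFP-Cripto My-LOF mice, which also carry LysMCre and the R26mTmG reporter. In these mice both alleles of Cripto, a membrane co-receptor of the TGFβ family, are deleted by a Cre driven from the lysozyme M gene in myeloid cells. CTX was given to both groups. Deletion in the sorted GFP+ cells was not complete according to the study, and the Cripto gene (Tdgf1) was not analysed here, so no check of the genotypes by the deleted gene was made.

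Scavenger receptors are unrelated proteins grouped by what they bind: oxidized lipoproteins, bacterial surfaces, dying cells, cell debris, and complexes of hemoglobin or of proteases with their inhibitors. Most sit in the plasma membrane and carry their cargo into endosomes and lysosomes, while a few remain in the lysosomal membrane itself. In injured muscle, MPs use such receptors to take up remnants of fibers and of red cells before the tissue is rebuilt.

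The Control libraries held 12688968 to 14141773 recovered reads and the Cripto KO libraries 14633880 to 15659847, of which the 10 genes took between 0.461% and 0.530%. The normalized values given throughout are reads per 1000000 of a library size that had been adjusted for each sample, so that the values of a sample sum to between 994778 and 1041610. Of the genes that define MPs, Adgre1, which encodes the sorting antigen F4/80, was between 1065 and 1384 and Csf1r between 1566 and 1815 in the 6 samples. A pair of Control libraries stood apart from the rest. Xist is transcribed from the inactive X chromosome of female cells, and Control replicate 1, labelled male like the others, had an Xist value of 171, against at most 0.885 elsewhere. Ddx3y, a gene of the Y chromosome, was 0.184 in that library and at least 49.1 elsewhere, so both genes go against its sex label. Control replicate 2 had a Lyz2 value of 11066, against at most 28.3 elsewhere, Lyz2 being the locus into which LysMCre is inserted. Control replicates 1 and 3, at 25.2 and 21.4, lay within the Cripto KO range of 21.2 to 28.3. The Control libraries thus differed among themselves at this locus, and whether they share a genotype there was not tested. Differences of the 10 genes are therefore also given without Control replicate 1 and without Control replicate 2, as are the medians of several gene lists.

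Marco is the class A receptor with a collagenous domain, known from alveolar, splenic marginal zone and peritoneal MPs, where it binds bacteria and unopsonized particles. It lies on the minus strand of chromosome 1 from 120474538 to 120505024 (ENSMUSG00000026390, GRCm38). Its normalized values were 1.21, 1.55 and 1.43 in the Control and 14.8, 8.32 and 5.41 in the Cripto KO samples (replicates 1 to 3). Every Cripto KO sample was above every Control sample, and the lowest Cripto KO value was 3.49 times the highest Control value. The means were 1.40 ± 0.17 in Control and 9.52 ± 4.82 in Cripto KO MPs (SD, n = 3 each). The log2(Cripto KO/Control) was 2.65 (SE 0.34, 95% interval 1.88 to 3.42), a fold of 6.28 (95% interval 3.68 to 10.7). Because Marco had been chosen on this same contrast, these intervals do not keep their nominal coverage, and nothing is read from them. More MPs that express Marco and more Marco RNA per MP cannot be told apart in such bulk samples.

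The Cripto KO samples differed among themselves in Marco more than the Control samples did. The highest Cripto KO value was 2.74 times the lowest, with a coefficient of variation of 50.7%, against 1.28 times and 12.2% in Control. Marco was counted from 16, 20 and 17 reads in Control and from 233, 117 and 78 reads in Cripto KO samples. The exact Poisson 95% intervals of the normalized values, which cover counting error only, reached at most 2.38 in Control (replicate 2) and went at the lowest down to 4.28 in Cripto KO (replicate 3). They do not measure the spread between samples, and nothing is read from the gap between the groups, since Marco was chosen on these values. Among the Cripto KO samples the interval of replicate 1 lay above those of replicates 2 and 3, whose upper bounds were 9.96 and 6.74. Without Control replicate 1 the log2(Cripto KO/Control) of Marco was 2.55, and without Control replicate 2 it was 2.73.

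**Figure D1:**
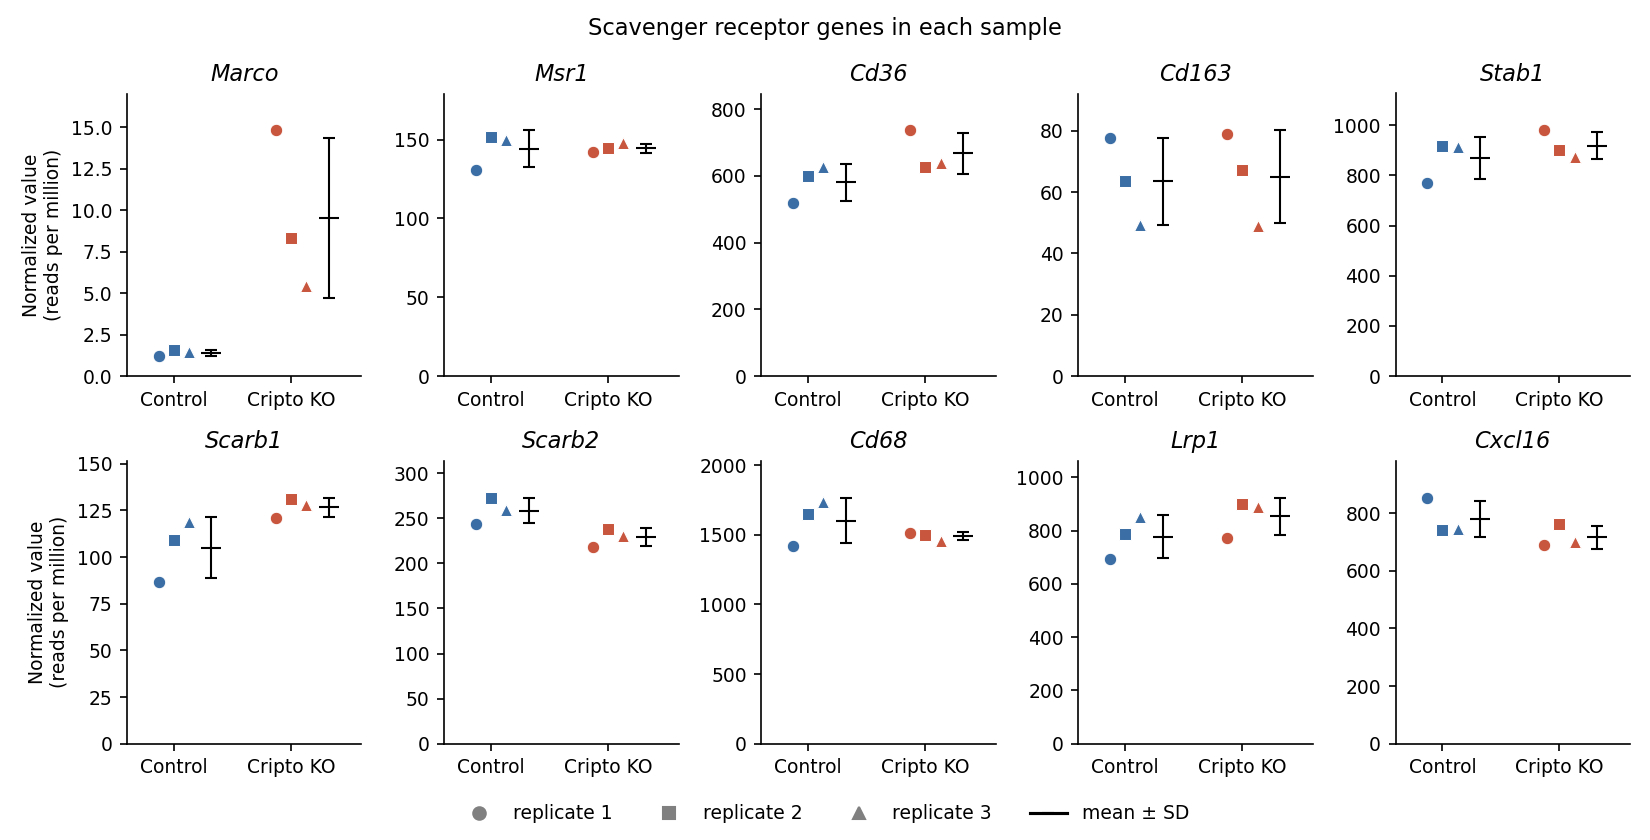
Normalized value (reads per 1000000 of the adjusted library size, each axis from 0) of the 10 scavenger receptor genes in each of the 3 Control (blue) and 3 Cripto KO (red) samples; the marker shape gives the replicate number, and the bar at the right of each group is the mean ± SD. Marco is at most 1.55 in Control and at least 5.41 in Cripto KO MPs, whereas the groups overlap in 7 of the other 9 panels.

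Marco was the scavenger receptor gene with the lowest level of the set and Cd68 the one with the highest, both by normalized value and per kb of the longest transcript, so the sequences around the start sites of these genes are shown. The windows come from RefSeq on GRCm38.p6, run from 250 bases before to 50 bases after the annotated start, and are given 5′ to 3′ on the gene's own strand. Capitals mark matches to GAGGAAG, the core bound by the myeloid factor PU.1, and to TGANTCA, the AP-1 site, each searched on both strands. The Marco window is chr1:120504975-120505274 (minus strand) and the Cd68 window chr11:69666121-69666420 (minus strand).
Marco: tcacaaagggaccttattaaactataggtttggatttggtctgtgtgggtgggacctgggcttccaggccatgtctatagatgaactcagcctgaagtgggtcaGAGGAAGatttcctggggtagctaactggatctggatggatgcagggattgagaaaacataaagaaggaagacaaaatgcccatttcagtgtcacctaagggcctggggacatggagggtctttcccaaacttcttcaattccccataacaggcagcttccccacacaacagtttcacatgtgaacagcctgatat
Cd68: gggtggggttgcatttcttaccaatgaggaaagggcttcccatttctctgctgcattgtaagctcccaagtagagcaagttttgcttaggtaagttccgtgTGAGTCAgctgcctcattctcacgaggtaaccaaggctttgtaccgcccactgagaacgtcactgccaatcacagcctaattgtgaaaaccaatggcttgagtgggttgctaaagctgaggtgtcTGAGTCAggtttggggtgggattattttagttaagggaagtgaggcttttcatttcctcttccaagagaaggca
The Marco window had the PU.1 core once, starting 146 bases before the start site, and the Cd68 window had the AP-1 site at 149 and at 24 bases before it. Of all 32851 mouse windows of this length, 13.6% held the PU.1 core and 7.81% the AP-1 site. Marco's window had 0 CG pairs, as did 5.43% of all windows, against 4 CG pairs in that of Cd68 and a median of 7 over all windows. A match of this kind describes the letters only. Windows were found for 7 of the 10 genes, namely Marco, Cd36, Scarb2, Cd163, Lrp1, Cd68 and Stab1. TGACNNNGC, the antioxidant response element to which Nfe2l2 binds, was found in those of Scarb2 and Lrp1, once each, and 12.4% of all windows held it.

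Msr1 (ENSMUSG00000025044, chromosome 8 from 39581685 to 39642673) encodes the other class A receptor of the set, the trimeric receptor of modified lipoproteins that is found on most tissue MPs. It was 131, 152 and 150 in the Control and 142, 144 and 148 in the Cripto KO samples (replicates 1 to 3). The Cripto KO values lay inside the Control range, and the log2(Cripto KO/Control) was 0.01 (95% interval -0.16 to 0.18, adjusted p = 0.985, limma over all genes). The fold between the groups was thus between 0.896 and 1.13 within its interval, for a gene of the same structural class as Marco.

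Cd36, Scarb1 and Scarb2 form the class B family, whose members span the membrane at both ends. Cd36 (ENSMUSG00000002944, chromosome 5 from 17781690 to 17888801) takes up fatty acids, oxidized lipoproteins and thrombospondin. It was 520, 599 and 626 in the Control and 736, 626 and 639 in the Cripto KO samples (replicates 1 to 3). Cripto KO replicate 1 stood above all other samples, while Cripto KO replicate 2 lay just under the highest Control sample, so the groups overlapped. The log2(Cripto KO/Control) of Cd36 was 0.20 (95% interval -0.01 to 0.41, adjusted p = 0.614, limma).

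Scarb1 (ENSMUSG00000037936, chromosome 5 from 125277087 to 125341094), the receptor through which cells exchange cholesterol with high-density lipoprotein, was 86.8, 109 and 119 in the Control and 121, 131 and 128 in the Cripto KO samples (replicates 1 to 3). All Cripto KO samples were above all Control samples, by a small margin at the closest pair. Its log2(Cripto KO/Control) was 0.28 (SE 0.11, unadjusted p = 0.0295, adjusted p = 0.529, limma), which did not pass the threshold. Without Control replicate 1, its lowest sample, it was 0.15 (adjusted p = 0.513, limma).

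Scarb2, or LIMP-2 (ENSMUSG00000029426, chromosome 5 from 92441314 to 92506833), stays in the lysosomal membrane and carries β-glucocerebrosidase there. It was 244, 272 and 259 in the Control and 218, 238 and 231 in the Cripto KO samples (replicates 1 to 3). All Cripto KO samples were below all Control samples. The log2(Cripto KO/Control) was -0.17 (SE 0.07, unadjusted p = 0.0307, adjusted p = 0.533, limma), which did not pass the threshold either. The class B genes thus did not share a direction, with Cd36 and Scarb1 above 0 and Scarb2 below 0.

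Cd68, or macrosialin (ENSMUSG00000018774, chromosome 11 from 69664213 to 69666153), is a heavily glycosylated protein of the late endosome and lysosome that is widely used as a macrophage marker. It was 1420, 1653 and 1734 in the Control and 1516, 1496 and 1459 in the Cripto KO samples (replicates 1 to 3). The Cripto KO samples were close together, with a coefficient of variation of 1.94%, and inside the Control range. Its log2(Cripto KO/Control) was -0.10 (95% interval -0.30 to 0.10, adjusted p = 0.795, limma).

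Cd163 (ENSMUSG00000008845, chromosome 6 from 124304656 to 124330527) is the receptor for haptoglobin-hemoglobin complexes and marks MPs of the anti-inflammatory kind. It was 77.8, 63.5 and 49.3 in the Control and 79.0, 67.1 and 49.0 in the Cripto KO samples (replicates 1 to 3). The samples within each group differed far more than the groups did, with coefficients of variation of 22.4% and 23.2% and means of 63.6 and 65.0. The log2(Cripto KO/Control) of 0.03 therefore had the widest interval of the 9 genes, from -0.41 to 0.47 (adjusted p = 0.976, limma).

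Stab1, or stabilin-1 (ENSMUSG00000042286, chromosome 14 from 31139013 to 31168641), clears SPARC, a secreted matrix protein, and modified lipoproteins and is likewise found on anti-inflammatory MPs. It was 771, 918 and 914 in the Control and 979, 902 and 873 in the Cripto KO samples (replicates 1 to 3). Only Cripto KO replicate 1 was above all Control samples, and the groups overlapped. Its log2(Cripto KO/Control) was 0.08 (95% interval -0.12 to 0.29, adjusted p = 0.823, limma).

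Lrp1 (ENSMUSG00000040249, chromosome 10 from 127538161 to 127621148) is a giant receptor of the LDL receptor family that internalizes apolipoprotein E, complexes of proteases with their inhibitors, and calreticulin on dying cells. It was 694, 787 and 852 in the Control and 773, 899 and 888 in the Cripto KO samples (replicates 1 to 3). The second and the third Cripto KO sample exceeded the Control samples while the first lay among them. The log2(Cripto KO/Control) was 0.14 (95% interval -0.08 to 0.35, adjusted p = 0.727, limma).

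Cxcl16 (ENSMUSG00000018920, chromosome 11 from 70453983 to 70459984) is both a chemokine and, in its membrane form, the receptor SR-PSOX for oxidized lipoprotein and phosphatidylserine. It was 853, 742 and 744 in the Control and 688, 762 and 701 in the Cripto KO samples (replicates 1 to 3). A single Cripto KO sample reached the Control range, and the groups overlapped. Its log2(Cripto KO/Control) was -0.12 (95% interval -0.30 to 0.06, adjusted p = 0.722, limma). Cxcl16 shares 552 of its 3021 annotated exon bases (18.3%) with Zmynd15 on the opposite strand, and no source used here says that reads were counted by strand, so some of its reads may belong to Zmynd15, which was 37.1 ± 7.35 in Control and 34.6 ± 2.60 in Cripto KO MPs (SD, n = 3 each).

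Of the 9 scavenger receptor genes other than Marco, 0 had an adjusted p under 0.05 (limma), where 0.131% of all 13008 genes did. An unadjusted p under 0.05 was found for 2 of the 9, Scarb1 and Scarb2, where 8.59% of all genes had one, 3.99% higher and 4.6% lower in Cripto KO. These 2 genes were also the ones whose groups did not overlap, which held for 14.5% of all genes, 6.43% higher and 8.02% lower in Cripto KO. With the edgeR quasi-likelihood test and with DESeq2 on recovered reads, 0 of the 9 passed as well, and 0 of the 9 passed in limma with each of the 6 samples left out in turn, Control replicates 1 and 2 included. The 9 adjusted p-values lay between 0.529 and 0.985. The log2(Cripto KO/Control) was above 0 in 6 of the 9 and below 0 in 3, where 47.4% of all genes were above 0. Its median was 0.03, and its median size regardless of sign was 0.12, the same as the 0.12 of all genes. The 95% intervals of the 9 reached no lower than -0.41 and no higher than 0.53. Each of these genes rested on at least 604 reads per sample, up to 23872. The limma p-values set the difference between the groups against the spread between these samples, which the study describes as biological replicates. In that fit the variance of each gene is drawn toward a trend over all genes. The Control spread includes replicates 1 and 2, which stood apart.

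**Figure D2:**
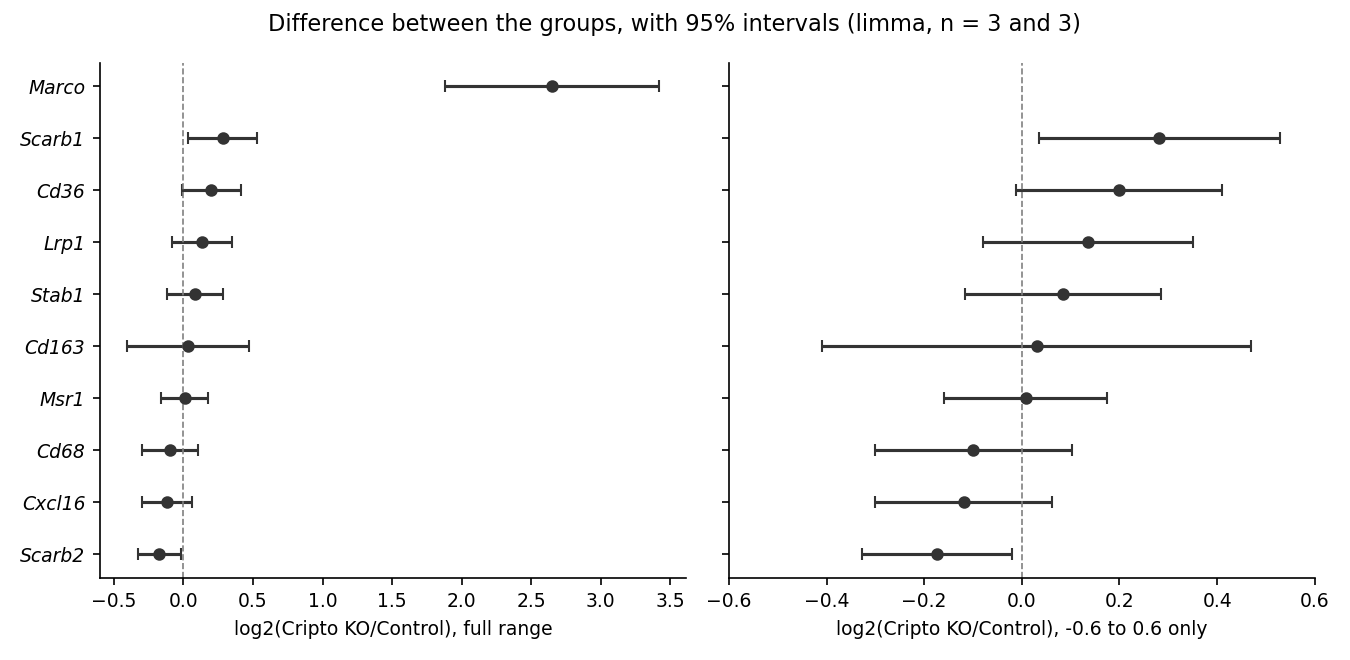
Difference between the groups for the 10 scavenger receptor genes as log2(Cripto KO/Control) from limma, points with 95% intervals, over the full range at the left and between -0.6 and 0.6 at the right, where Marco falls outside the axis. Marco is at 2.65, and the other 9 genes lie between -0.17 and 0.28. The interval of Marco is a description only, since the gene had been chosen on these groups.

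Control replicate 1 was the lowest Control sample in 8 of the 10 genes, the others being Cd163 and Cxcl16, in which it was the highest. It is the library with the high Xist value, and the part of that library in the differences was measured by leaving it out. Without it, the log2(Cripto KO/Control) of Cd36 went from 0.20 to 0.12 and that of Msr1 from 0.01 to -0.06 (adjusted p = 0.653 and 0.775, limma). Stab1 and Lrp1 came closer to 0 as well, from 0.08 to 0.0021 and from 0.14 to 0.06, and so did Cxcl16, from -0.12 to -0.05. Cd68 moved away from 0, from -0.10 to -0.18, as did Scarb2, from -0.17 to -0.22, and Cd163, from 0.03 to 0.19. Without Control replicate 2, the library with the high Lyz2 value, the 9 genes lay between -0.15 (Cxcl16) and 0.32 (Scarb1), and each kept its sign.

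Levels were set side by side per kilobase of the longest annotated transcript, since longer transcripts give more reads. In Control MPs the level per kb was highest for Cd68, at 1303 ± 133, followed by Cxcl16 at 289 ± 23.5, Cd36 at 171 ± 16.3 and Stab1 at 108 ± 10.5 (SD, n = 3 each). Scarb2 at 55.0 ± 3.02 and Lrp1 at 52.2 ± 5.33 came next, and their samples overlapped. Msr1 at 39.6 ± 3.22 and Scarb1 at 33.9 ± 5.29 overlapped too. Cd163 followed at 14.3 ± 3.20 and Marco was last at 0.726 ± 0.0885, a Cd163 level 19.7 times that of Marco. The remaining neighbours in this order did not overlap in any Control sample. In Cripto KO MPs Marco reached 4.94 ± 2.50 per kb (SD, n = 3) and still ended below each of the other 9 genes, its highest sample at 7.70 lying under every Cd163 sample. The order depends on the length used. Per kb of the median coding transcript, Stab1 came first in Control at 1468, ahead of Cd68 at 1432 and Lrp1 at 312, while Cd163 at 14.4 and Marco at 1.22 remained the lowest.

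**Figure D3:**
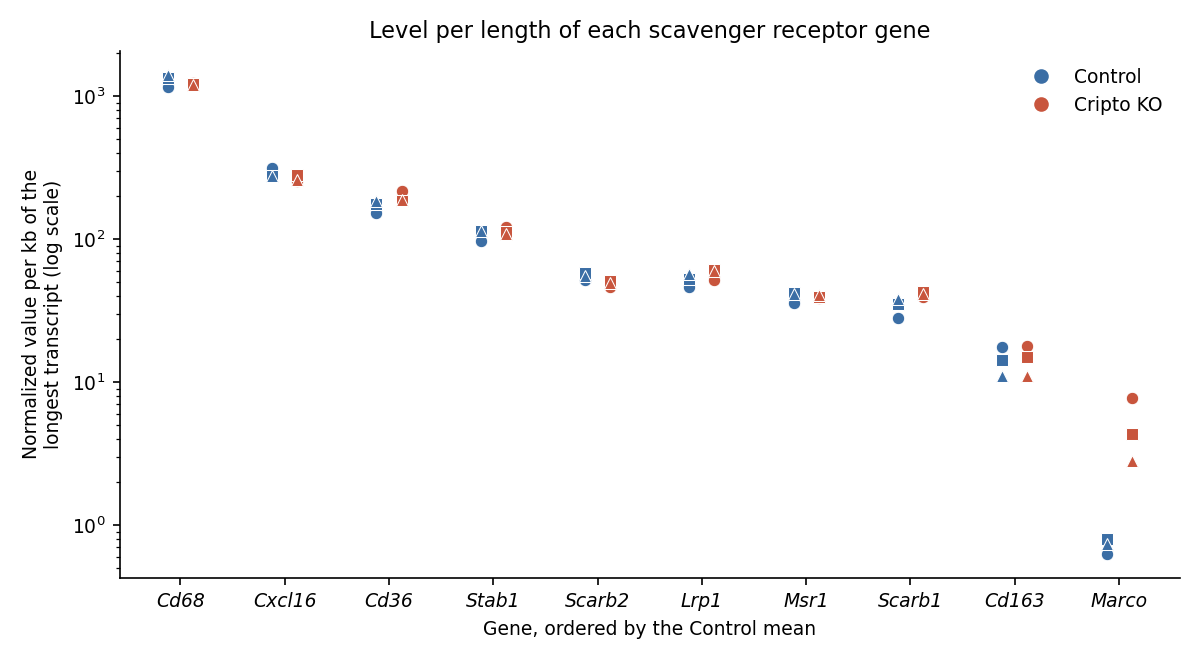
Normalized value per kb of the longest annotated transcript (log axis) for each scavenger receptor gene, in the order of the Control mean, with 1 marker per sample (circle, square and triangle for replicates 1, 2 and 3; blue Control, red Cripto KO). Cd68 leads at 1303 on average in Control, and Marco is lowest in both groups, at 0.726 in Control and 4.94 in Cripto KO MPs.

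Other receptors with scavenger function were taken from a list of 18 genes, of which 13 were measured. Counts of unadjusted p-values in this list and those that follow stand against 3.99% higher and 4.6% lower over all genes. A gene that stands in more than 1 list is counted in each, as were Cd5l, Lpl, Pparg and Hmox1, so these counts are not separate findings. None passed the threshold over all genes (0 of 13 in limma), and the median log2(Cripto KO/Control) was 0.12, against -0.01 over all genes. An unadjusted p under 0.05 was found for 5, with 3 higher (Cd5l, Scarf1 and Colec12) and 2 lower in Cripto KO, Clec7a (-0.27) and Lgals3bp (-0.20). Mrc1 encodes CD206, a protein that the study stained on muscle sections. It counted fewer CD206+ MPs in Cripto My-LOF than in Control muscle on day 5. Mrc1 RNA was 593, 602 and 575 in the Control and 677, 647 and 616 in the Cripto KO samples (replicates 1 to 3). Every Cripto KO sample was above every Control sample, as in 6.43% of all genes (log2(Cripto KO/Control) 0.13, adjusted p = 0.64, limma). RNA of sorted MPs and counts of stained cells are unlike measures, and how they relate was not tested. Cd14, the endotoxin co-receptor, had the highest value, 3258 ± 200.2 in Control and 3161 ± 463 in Cripto KO MPs (SD, n = 3 each). Cd5l, a secreted protein of tissue MPs with scavenger receptor cysteine-rich domains, was 72.5, 135 and 97.3 in the Control and 126, 137 and 139 in the Cripto KO samples (replicates 1 to 3), a log2(Cripto KO/Control) of 0.44 (adjusted p = 0.548, limma), and the groups overlapped. Of the LDL receptor family to which Lrp1 belongs, 13 of 15 genes were measured, 0 passed, and 1, the sorting receptor Sorl1, had an unadjusted p under 0.05 (log2(Cripto KO/Control) -0.28, adjusted p = 0.51, limma). Lrpap1, the chaperone that keeps Lrp1 free of ligand on its way to the surface, was 167 ± 10.8 in Control and 166 ± 6.47 in Cripto KO MPs (SD, n = 3 each).

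Ligands and cargo of the scavenger receptors were represented by 18 measured genes of 21 listed. In limma 0 of them passed over all genes and 5 had an unadjusted p under 0.05, 4 higher and 1 lower in Cripto KO, with a median log2(Cripto KO/Control) of 0.01. Apoe, the apolipoprotein that Lrp1 takes up, had the highest value, 45648 ± 1766 in Control and 45506 ± 3219 in Cripto KO MPs (SD, n = 3 each). Lpl, a lipase that supplies fatty acids to cells with Cd36 and also binds Lrp1, was 456, 635 and 693 in the Control and 849, 844 and 871 in the Cripto KO samples (replicates 1 to 3). Its groups did not overlap and its log2(Cripto KO/Control) was 0.55 (adjusted p = 0.376, limma), a difference that passed the threshold in DESeq2 but not in limma or edgeR.

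Partners of the receptors, which comprise kinases, co-receptors, cargo-handling proteins and the proteases that shed Cxcl16, Cd163 and Lrp1, gave 0 of 26 measured genes past the threshold in limma and 5 with an unadjusted p under 0.05, 2 of them higher in Cripto KO. Hmox1 degrades the heme that Cd163 brings in. It was 2557, 1734 and 2260.4 in the Control and 3073, 3009 and 2942 in the Cripto KO samples (replicates 1 to 3), so the groups did not overlap (log2(Cripto KO/Control) 0.48, adjusted p = 0.415, limma), and it passed the threshold in DESeq2 but not in limma or edgeR.

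Transcription factors known to act on genes of the set gave 0 of 24 measured genes past the threshold in limma and 5 with an unadjusted p under 0.05, 2 higher and 3 lower in Cripto KO. Klf4 was 514, 556 and 524 in the Control and 433, 440 and 406 in the Cripto KO samples (replicates 1 to 3), without overlap (log2(Cripto KO/Control) -0.32, adjusted p = 0.235, limma), and it too passed in DESeq2 but not in edgeR. Spi1, which encodes PU.1, was 490 ± 24.7 in Control and 488 ± 8.50 in Cripto KO MPs (SD, n = 3 each; adjusted p = 0.991, limma).

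Nfe2l2, or NRF2, is an activator of antioxidant genes and has been linked to Marco and Cd36. A list of 12 of its targets, all measured, had 6 genes with an unadjusted p under 0.05, all of them higher in Cripto KO, where 3.99% of all genes were, and 0 past the threshold in limma. Its median log2(Cripto KO/Control) was 0.30, against -0.01 over all genes, and 0.44 without Control replicate 1 and 0.22 without Control replicate 2. In 5 of the 12 every Cripto KO sample was above every Control sample, namely Hmox1, Gclm, Gclc, Gsr and Me1, a pattern that 6.43% of all genes had. Gclm, a subunit of the enzyme that starts glutathione synthesis, was 69.1, 50.1 and 63.5 in the Control and 92.7, 78.5 and 98.5 in the Cripto KO samples (replicates 1 to 3) (log2(Cripto KO/Control) 0.57, adjusted p = 0.288, limma), and passed in DESeq2 but not in edgeR. Nfe2l2 itself lay in the other direction, at 584 ± 31.8 in Control and 482 ± 24.6 in Cripto KO MPs (SD, n = 3 each), without overlap (log2 difference -0.28, adjusted p = 0.379, limma).

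**Figure D4:**
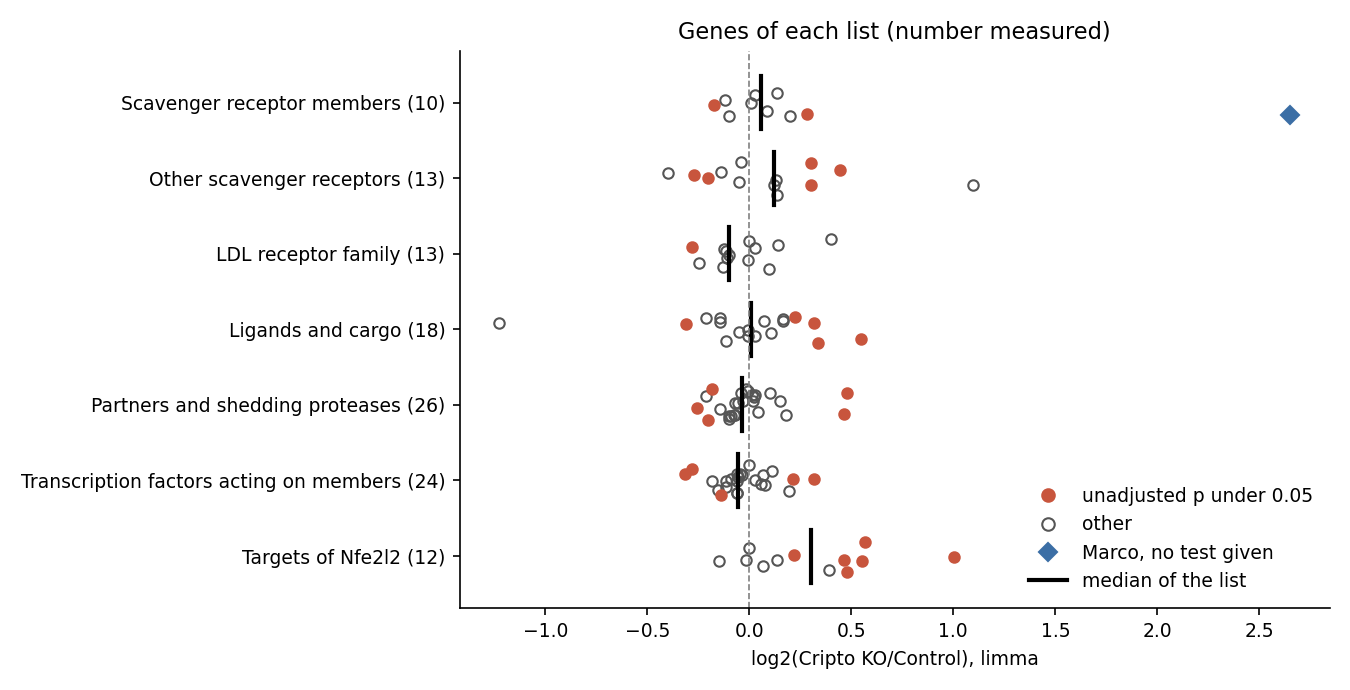
log2(Cripto KO/Control) from limma of every measured gene of the scavenger receptor set and of 6 lists of related genes, with 1 point per gene (vertical spread within a list is random), filled red where the unadjusted p is under 0.05, and a black bar at the median of the list. Marco (blue diamond) lies at 2.65, and the list of Nfe2l2 targets has a median of 0.30, whereas the medians of the other lists lie between -0.10 and 0.12.

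Marco is also a marker of particular MP populations, so the markers of those cells are given beside it. Of 15 alveolar MP markers 9 were measured and their values summed to 792 to 1132 in Control and 1296 to 1329 in Cripto KO samples, of which Lpl made up the most. In limma 0 passed and 3 had an unadjusted p under 0.05, all higher in Cripto KO, namely Lpl (log2(Cripto KO/Control) 0.55), Ctsk (0.52) and Pparg (0.22). The log2(Cripto KO/Control) was above 0 in 5 of the 9. Its median was 0.02, with -0.17 without Control replicate 1 and 0.18 without Control replicate 2. Siglecf, which defines alveolar MPs, was 2.32, 2.54 and 2.00 in the Control and 2.00, 1.81 and 0.999 in the Cripto KO samples (replicates 1 to 3). Its highest Cripto KO value was at the level of its lowest Control value (log2(Cripto KO/Control) -0.57, adjusted p = 0.688, limma). Of 12 peritoneal MP markers 10 were measured, summing to 359 to 450.2 in Control and 449 to 498 in Cripto KO samples, most of it from Fn1 and Cd5l. In limma 0 passed, and an unadjusted p under 0.05 was found for 1 marker higher (Cd5l) and 2 lower in Cripto KO, Saa3 (log2(Cripto KO/Control) -0.80) and Selp (-0.79). The 10 markers of splenic and lymph node MPs summed to 826 to 951 in Control and 868 to 960.4 in Cripto KO samples, with 0 past the threshold in limma and 3 unadjusted p-values under 0.05, all higher in Cripto KO. Their median of -0.01 became 0.19 when Control replicate 1 was left out. The part of these cells in the Marco difference was not tested.

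Values of markers of other cells of the muscle were read beside Marco in the same way. The 14 fibroblast markers all had a log2(Cripto KO/Control) above 0, where 47.4% of all genes did (median 0.25). In limma 7 had an unadjusted p under 0.05, all higher in Cripto KO, where 3.99% of all genes were, and 0 passed the threshold. They summed to 787 to 855 in Control and 936 to 964 in Cripto KO samples. The 11 measured muscle fiber markers had a median of -1.24 and 7 unadjusted p-values under 0.05, all lower in Cripto KO, with sums of 107, 56.5 and 52.7 in the Control and 73.4, 30.3 and 27.0 in the Cripto KO samples (replicates 1 to 3). Replicate 1 had the highest sum in both groups. Leaving out Control replicate 1 brought the median to -0.66, and leaving out Control replicate 2 brought it to -1.57. Sums in Control and Cripto KO were 68.7 to 77.1 and 73.4 to 80.6 for endothelial markers, 107 to 115 and 101 to 111 for neutrophil markers, 80.7 to 106 and 71.2 to 85.7 for lymphocyte markers, 13.8 to 18.4 and 14.1 to 15.3 for dendritic cell markers, and 564 to 686 and 650 to 735 for red cell and platelet markers. Macrophage markers summed to 18577 to 20357 outside Control replicate 2, in which Lyz2 brought the sum to 30873, and Cfd, the 1 adipocyte marker measured, was at most 0.265. What these cells contributed to the Marco values was not tested.

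Genes next to Marco on chromosome 1 were compared to see whether the neighbourhood differed with it. Within 1 Mb, 10 genes were measured, of which 0 passed the threshold in limma, and the median log2(Cripto KO/Control) was -0.08. An unadjusted p under 0.05 was found for 3, where 8.59% of all genes had one. The same 3 had groups without overlap, where 14.5% of all genes did. Steap3, an iron reductase of endosomes and the measured gene nearest to Marco on one side, was 98.2, 78.5 and 111 in the Control and 50.2, 45.4 and 77.3 in the Cripto KO samples (replicates 1 to 3). Its groups did not overlap and it was lower in Cripto KO by value, opposite to Marco (log2(Cripto KO/Control) -0.76, adjusted p = 0.379, limma). The other two with an unadjusted p under 0.05 were Tmem37 at -0.25 and Dbi at 0.17, and Insig2, the nearest on the other side, was at -0.07. Over all 10 scavenger receptor genes there were 20 flanking genes, of which 0 passed in limma, 3 had an unadjusted p under 0.05 (Steap3, Hgf and Stat6; 8.59% of all genes did) and 4 had groups without overlap, the fourth being Nup54 (14.5% of all genes).

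**Figure D5:**
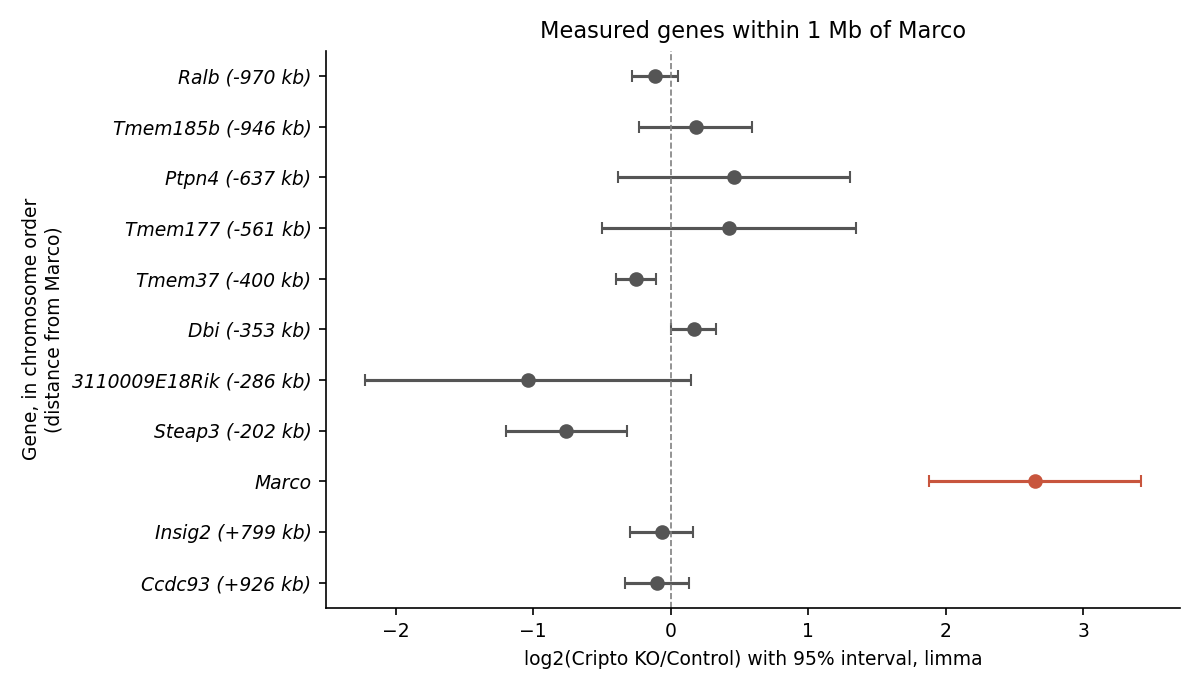
log2(Cripto KO/Control) with its 95% interval (limma, n = 3 and 3) for Marco (red) and the 10 measured genes within 1 Mb (grey), listed in chromosome order with the distance between gene bodies. Marco is at 2.65, Steap3 at -0.76, and the 10 neighbours lie between -1.04 and 0.46. The interval of Marco is a description only, since the gene had been chosen on these groups.

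The patterns most like that of Marco over the 6 samples were those of Lsm7, Ss18l2, Blm, Cacna1d and Fpgt, with Pearson's r on log2 values between 0.979 and 0.988 among 11959 genes with a mean of at least 1. With 6 points in 2 groups such values are a description, which carries no p and says nothing of control. The differences of the 5 genes were smaller than that of Marco, with log2(Cripto KO/Control) of 0.66 for Lsm7, 0.25 for Ss18l2, 0.79 for Blm, 0.38 for Cacna1d and 0.25 for Fpgt. Among the other scavenger receptor genes, r with Marco over the same 6 samples ranged from -0.83 for Scarb2 to 0.80 for Cd36.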

How the data were processed

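RNA-seq of sorted Ly6C-Low MPs from 3 Control and 3 Cripto KO samples was analyzed. The authors trimmed reads with Cutadapt 1.7.1, quantified them on the mouse transcriptome (GRCm38) with RSEM 1.2.20 and applied LIMMA for normalization. Each deposited value is a normalized signal of 1 gene in 1 sample. The values were found to equal a read count with 0.5 added, per 1000000 of an adjusted library size, so that 100.0% of 78048 values came out as whole reads within 0.01 read. No value was 0, and a gene at 3 reads had a value between 0.222 and 0.286.

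Groups were compared with limma 3.58.1 (R 4.3.3) on log2 values with no pseudocount, using lmFit and a trended eBayes, over all 13008 genes, with Benjamini-Hochberg adjustment and a threshold of 0.05. Recovered reads were tested with edgeR 4.0.16 and DESeq2 1.42.0, and voom weights were also tried. The scripts were tested on simulated counts. The genes of the set, the 19 gene lists and the tests were chosen with earlier results of these data known. The rule for named genes took all scavenger receptor genes, per list the 2 genes of highest mean and the 2 of largest difference (mean at least 1) and any past the threshold, genes within 1 Mb of Marco, the nearest measured gene on each side of each scavenger receptor gene, and the 5 genes most like Marco, from which the text gives a part. Nfe2l2, Spi1, Siglecf, Xist, Ddx3y, Lyz2, Adgre1, Csf1r, Mrc1 and the genes named beside a count were picked after their values were seen.

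Positions were taken from GENCODE mouse release M21 on GRCm38, and start site windows from RefSeq. Levels per kb used the longest transcript, a choice made after it was seen that the median coding transcript of Stab1 is 591 bases long. Marco, Cd36 and Cd68 share 0 words of 31 bases with other genes. Python 3.11.15 was used for tables (pandas 2.3.3, numpy 2.4.6), intervals (scipy 1.17.1) and plots (matplotlib 3.10.9).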

Additional observations from a re-analysis of the deposited data

How the results depend on the processing

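The log2(Cripto KO/Control) of Marco was between 2.04 (pseudocount 1) and 2.82 (DESeq2) in the 11 alternatives with all 6 samples. In the 6 fits that left 1 sample out it was between 2.27 (without Cripto KO replicate 1) and 3.00 (without Cripto KO replicate 3). Every Cripto KO sample was above every Control sample in Marco, so leaving 1 out could not turn its sign. These ranges describe the size of the difference only. The count of scavenger receptor genes past the threshold describes Marco alone, which had been chosen on these same groups, and supports nothing further. It was 1, and 0 with pseudocount 1 (3 genes with an unadjusted p under 0.05), quantile normalization (2), eBayes without a trend (1), voom weights (4) and a replicate block (3). With 1 sample left out it was between 0 and 1, being 0 without Control replicate 2 or 3 and without Cripto KO replicate 1 or 2. The cause was not tested. Over all genes the count was 17 (6 higher and 11 lower in Cripto KO), and 6 with quantile normalization, 5 without a trend, 31 with the robust option, 71 with DESeq2 (37 higher and 34 lower), 9 with voom weights and 2 with a replicate block. It was between 5 without Cripto KO replicate 2 and 31 without Control replicate 1, and 7 without Control replicate 3 or Cripto KO replicate 3. Over the 210 measured genes of all lists it was 1, again Marco itself, where 0.131% of all genes passed. It was 0 in the same 5 alternatives (27 to 51 genes of the lists with an unadjusted p under 0.05). With 1 sample left out it was between 0 and 1, Marco being the gene wherever it was 1. With DESeq2 it was 5, namely Marco, Gclm, Hmox1, Klf4 and Lpl. The sign of Msr1 turned to -0.061 without Control replicate 1 and to -0.0068 without Cripto KO replicate 3, and that of Cd163 to -0.14 without Control replicate 3, -0.12 without Cripto KO replicate 1 and -0.0066 without Cripto KO replicate 2, none of them past the threshold, with ranges over the samples left out of -0.061 to 0.047 for Msr1 and -0.14 to 0.22 for Cd163. With the median coding transcript as length the order of levels changed, with Stab1 first at 1468 per kb in Control, Lrp1 at 312 and Marco last at 1.22. Same-numbered samples had correlations of -0.21, -0.0052 and -2.46e-05 in their deviations from the group means, and differently numbered ones lay between -0.153 and 0.139. The replicate numbers are those of the deposited table, and the study's supplementary dataset numbers the Control samples in another order. The block thus rests on numbers that are not fixed, and these correlations cannot show whether samples were paired. The block changed no call of the other 9 genes. Cfd, at a mean under 1, has no value under the filter on low values. At 16 to 20 reads, Control samples give Marco with wide counting intervals.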
